A study of Mus musculus with 8 samples.

Results

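The Cd73-negative cells of the mouse retina at postnatal day 2 (P2) were compared with the Cd73-negative cells at postnatal day 5 (P5). The 2 libraries, of 8 in the series, were joined gene by gene, small RNAs were left out, and the 12457 genes with a level of at least 1 FPKM (fragments scaled to transcript length and to the size of the library) in either library were compared, of 23021 rows in each table. Retinas of wild-type ICR (slc:ICR) mice were dissociated, stained for Cd73 and sorted, and poly(A) RNA was sequenced from Cd73-positive and Cd73-negative cells at P2, P5 and P8 (postnatal day 8), and from whole retina at embryonic days 15 and 18. No sample carried a mutation or a treatment. Retinas of several pups were pooled before each sort, and each age and fraction has 1 library, so there is no replicate spread, no test and no p-value in what follows. A gene is called higher or lower at P5 when FPKM + 1 differed at least 1.5-fold, and log2 differences are P5 minus P2 of log2 (FPKM + 1).

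Cd73, the product of Nt5e, is an ecto-enzyme on the surface of rod precursors and rods. What the sort leaves behind is a mixture of lineages, and the sorts of this study favoured speed over purity. In the newborn retina it holds dividing progenitors, which still make rods, bipolar cells and Müller glia, beside the amacrine, horizontal, ganglion and cone cells born earlier. Over the days between P2 and P5 the central retina stops dividing, and bipolar cells and Müller glia begin to take on their own expression programmes.

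By the 1.5-fold criterion 1635 genes (13.1% of those compared) were higher and 2038 (16.4%) were lower at P5, and the median difference over all genes compared was -0.06 on the log2 scale. With the differences centred on abundant genes, which shifts every value by 0.10, the calls were 2006 higher and 1598 lower. Of the gene groups described here, DNA replication, mitosis and amacrine genes lay on the lower side, and bipolar, rod and nuclear factor I genes on the higher side. Because the libraries are bulk, fewer cells of a type and less RNA per cell cannot be told apart.

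**Figure D1:**
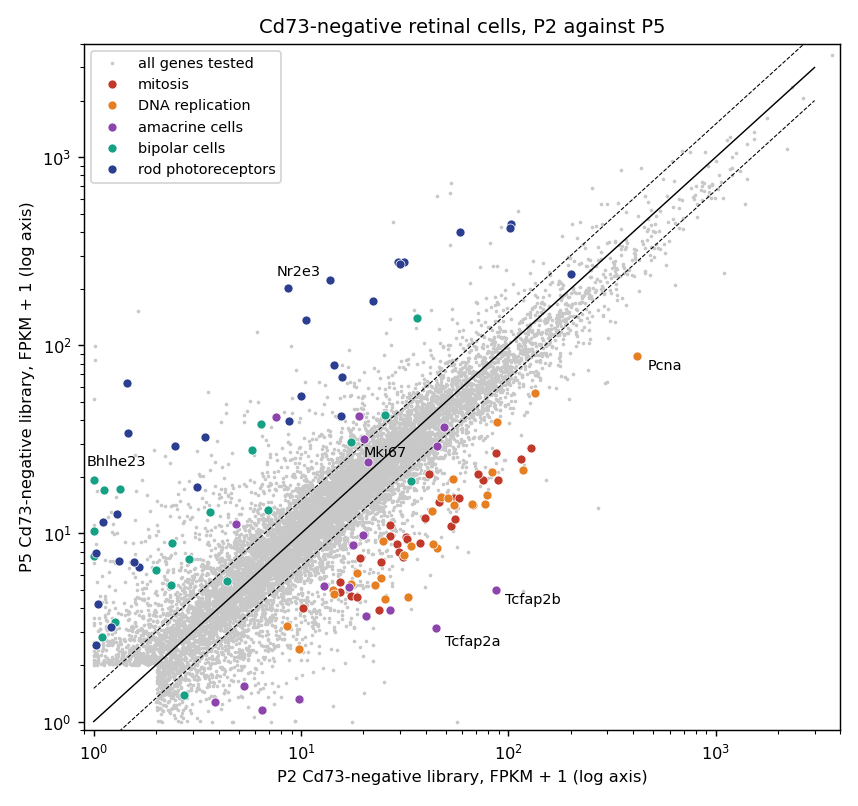
FPKM + 1 of every gene compared in the P2 (horizontal) and P5 (vertical) Cd73-negative libraries, on log axes, 1 library per axis; the solid line marks equal values and the dashed lines 1.5-fold. All 30 mitosis and all 30 DNA replication genes lie below the lower dashed line, and 29 of the 32 rod genes were past the upper one.

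The label of the fraction was set beside its markers. Mki67 (chr7:142881471-142908062, mm9), a marker of dividing cells, was at 40.4 FPKM at P2 and 19.8 at P5 in the Cd73-negative libraries, against 10.5 and 4.64 in the Cd73-positive ones. Tcfap2a (chr13:40811044-40829192) is a transcription factor of amacrine and horizontal cells, and was at 44.0 and 2.13 against 11.2 and 0.491. At each age both genes were higher in the Cd73-negative library. Nt5e itself (chr9:88222447-88266927) was at 2.43 FPKM at P2 and 31.4 at P5 in Cd73-negative cells, against 97.3 and 131 in Cd73-positive cells. The Nt5e level of the Cd73-negative fraction was thus 12.9 times as high at P5 as at P2, and still below that of the Cd73-positive fraction.

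The P2 Cd73-negative library also stood apart from the P5 one in markers of astrocytes, microglia, pigment epithelium and lens, and blood. All 6 astrocyte and all 12 microglia markers were lower in it than in the Cd73-positive library of the same age, whereas at P5 5 and 11 of them were higher in the Cd73-negative library. FPKM summed over the astrocyte list was 6.25 at P2 and 81.8 at P5, and over the microglia list 11.8 and 79.4. Over the pigment epithelium and lens list the sums were 4.11 and 58.3, and over the erythroid list 88.5 and 1305. In the Cd73-positive libraries the astrocyte sums were 69.2 and 57.2, the microglia sums 65.1 and 54.3 and the pigment epithelium and lens sums 81.9 and 76.3, so these 3 lists were not higher at P5 there. With 1 library per age, a difference of age and a difference between the sorts cannot be told apart, and the part of these cells in the other differences was not tested. The ratio of low FPKM values put the depth of the P5 library at 0.904 of the P2 library.

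DNA replication genes encode the helicase, polymerases and nucleotide enzymes of S phase. All 30 measured members were lower at P5, against 16.4% of all genes compared, with a median log2 difference of -1.99 and a range from -2.84 to -1.19. Mcm6, a subunit of the replicative helicase, went from 116 to 20.6 FPKM, and Pcna, the sliding clamp, the most abundant member, from 416 to 87.0. Gins2, a further part of the helicase, had the largest difference, from 31.8 to 3.57. Ung, which removes uracil from DNA, was at 24.5 and 3.50.

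All 30 mitosis genes were lower at P5 as well, with a median of -1.82. Ndc80, an outer kinetochore protein, was at 22.8 FPKM at P2 and 2.93 at P5. Aurkb, the kinase of the chromosomal passenger complex, was at 52.0 and 9.95, and its partner Birc5 at 88.5 and 18.2. Top2a, which untangles sister chromatids, was the most abundant member, at 128 and 27.5. Of the 60 genes in both lists, the smallest fold on FPKM + 1 was 1.99, for Mki67, and the largest was 7.18, for Gins2. The genes were still measured at P5, where 28 of the 60 were at 10 FPKM or more, against 56 at P2. At P8 all 60 were lower again and 6 were at 10 FPKM or more. In the Cd73-positive cells 28 of the 30 replication genes and all 30 mitosis genes were also lower at P5 than at P2, from lower levels.

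Cyclins, CDKs and their inhibitors were more mixed. Of 22 members 14 were lower and 2 higher, against 16.4% and 13.1% of all genes compared, with a median of -1.27. Ccnd1, the D-type cyclin of retinal progenitors, was the most abundant member, at 1095 FPKM at P2, 240 at P5 and 41.8 at P8. Cdk1 was at 52.9 and 9.34, and Ccna2, its S and G2 partner, at 123 and 27.6. The inhibitor Cdkn1b (p27), at 116 and 104, and Cdk4, at 355 and 264, did not pass 1.5-fold. On the higher side were Ccnd2, at 0.239 and 3.34, and Cdkn1c (p57), at 23.6 and 37.0. In Cd73-positive cells Ccnd2 went the other way, from 9.75 to 1.53, and Cdkn1c was at 33.5 and 33.6.

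Promoter sequences of these genes are shown because the members moved together. They are the 150 bases before the RefSeq start site, in build GRCm38.p6, written 5′ to 3′ on the strand of the gene, whereas the expression tables use mm9. Capitals mark matches, on either strand, to CCAAT, to the cell cycle homology region (the form TTTGAA and the variant form TTCGAA) or to the E2F motif. For E2F the form TTCCCGC was searched, as were the related form TTGGCGC, the related form TTGCCGC and the related form TTCGCGC. Letters of CCAAT and TTGGCGC can overlap. Mki67 (chr7:135716380-135716529, minus strand), Top2a (chr11:99024190-99024339, minus strand) and Cdc20 (chr4:118437344-118437493, minus strand), an activator of the anaphase-promoting complex that was at 86.5 FPKM at P2 and 25.7 at P5, stand for the mitosis list. Mcm6 (chr1:128359706-128359855, minus strand) stands for the replication list.
Mki67: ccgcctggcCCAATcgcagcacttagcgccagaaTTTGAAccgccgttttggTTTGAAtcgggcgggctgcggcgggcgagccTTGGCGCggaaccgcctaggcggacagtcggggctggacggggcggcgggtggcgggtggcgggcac
Top2a: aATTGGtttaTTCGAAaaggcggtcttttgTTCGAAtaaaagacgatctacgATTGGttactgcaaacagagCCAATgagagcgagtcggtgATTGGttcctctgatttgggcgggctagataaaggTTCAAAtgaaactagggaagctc
Cdc20: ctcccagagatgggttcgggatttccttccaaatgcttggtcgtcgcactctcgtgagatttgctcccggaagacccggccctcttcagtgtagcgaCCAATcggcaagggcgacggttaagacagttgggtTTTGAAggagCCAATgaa
Mcm6: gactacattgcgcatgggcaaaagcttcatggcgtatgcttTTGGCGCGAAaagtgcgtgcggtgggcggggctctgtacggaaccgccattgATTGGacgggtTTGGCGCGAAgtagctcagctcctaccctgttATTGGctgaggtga

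Over windows from 250 bases before to 50 bases after the start, the cell cycle homology letters were found in 22 of 27 promoters (81.5%) of 26 mitosis genes and in 4 of 30 (13.3%) of 25 replication genes. Of all 32851 promoters 19.2% held them. E2F letters were found in 20 of the 30 replication promoters (66.7%) and 4 of the 27 mitosis promoters (14.8%), against 9.57% of all. CCAAT was in 17 replication promoters (56.7%) and 20 mitosis promoters (74.1%), against 37.4% of all. A match is a description of these letters and not evidence of a bound site.

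Retinal progenitor factors did not follow the cell cycle genes as a block. Of 27 members 26 passed the level filter, and 15 were lower at P5, against 16.4% of all genes compared. The 4 that were higher are a share near the 13.1% of all genes. The median was -0.64. Atoh7, the factor that gives progenitors competence to make ganglion cells, had the largest difference, at 116 FPKM at P2, 3.96 at P5 and 0.354 at P8. Its P2 value lies above the upper confidence bound that Cufflinks gave it, 74.0, so the size of its difference is uncertain. Fgf15, a growth factor made by progenitors, was at 152 and 18.1, and Foxn4, which directs amacrine and horizontal fates, at 36 and 9.03. Sox2 was at 101 and 45.2, and Pax6 at 190 and 65.0.

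Among the 4 progenitor-list genes that were higher at P5 were factors that later photoreceptor or bipolar precursors also use. Neurod4 was at 252 FPKM at P2 and 684 at P5, and Otx2, a determinant of photoreceptor and bipolar fates, at 349 and 851. Neurod1 was at 202 and 440. In the Cd73-positive cells Otx2 was at 777 and 492 and Neurod4 at 349 and 152, so at P5 both were higher in the Cd73-negative library and at P2 both were higher in the Cd73-positive one. Rax, Sox4, Sox9 and Insm1 stayed within 1.5-fold.

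The Notch pathway holds neighbouring progenitors back from differentiation. Of its 20 members 4 were lower and 1 was higher, near the 16.4% and 13.1% of all genes compared, and the median was -0.09, or 0.01 with centred values. Dll4, a ligand of newborn neurons, was at 27.2 FPKM and 10.6, while the ligands Dll1, at 46.4 and 32.3, and Dll3, at 58.2 and 62.1, did not pass. Of the receptors, Notch1 was at 70.5 and 87.0 and Notch2, the member that was higher, at 4.29 and 7.64. Of the target genes, Hes1 was at 56.9 and 22.9 and Hes5, at 108 and 81.8, did not pass. Hes6, the most abundant member, was at 594 and 359. Rfng, which adds sugars to Notch receptors, was at 13.3 and 19.5, within 1.5-fold.

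All 4 nuclear factor I genes, transcription factors that late progenitors use for leaving the cell cycle and for making bipolar cells and Müller glia, were higher at P5, against 13.1% of all genes compared. Nfix was at 19.1 FPKM (Cufflinks bounds 17.7 to 20.6) at P2 and 70.9 (67.9 to 74.5) at P5. Nfic was at 5.85 and 22.5, Nfib at 14.3 and 39.6, and Nfia at 5.06 and 10.04. Summed over the family, FPKM was 44.3 at P2 and 143 at P5. At P8 3 of the 4 were below their P5 level. The same genes in Cd73-positive cells, in the order Nfix, Nfic, Nfib and Nfia, were at 8.66, 21.5, 10.8 and 2.47 FPKM at P2 and at 14.1, 36.4, 7.09 and 2.03 at P5. Nfic was the member with the higher level in Cd73-positive cells at each age.

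**Figure D2:**
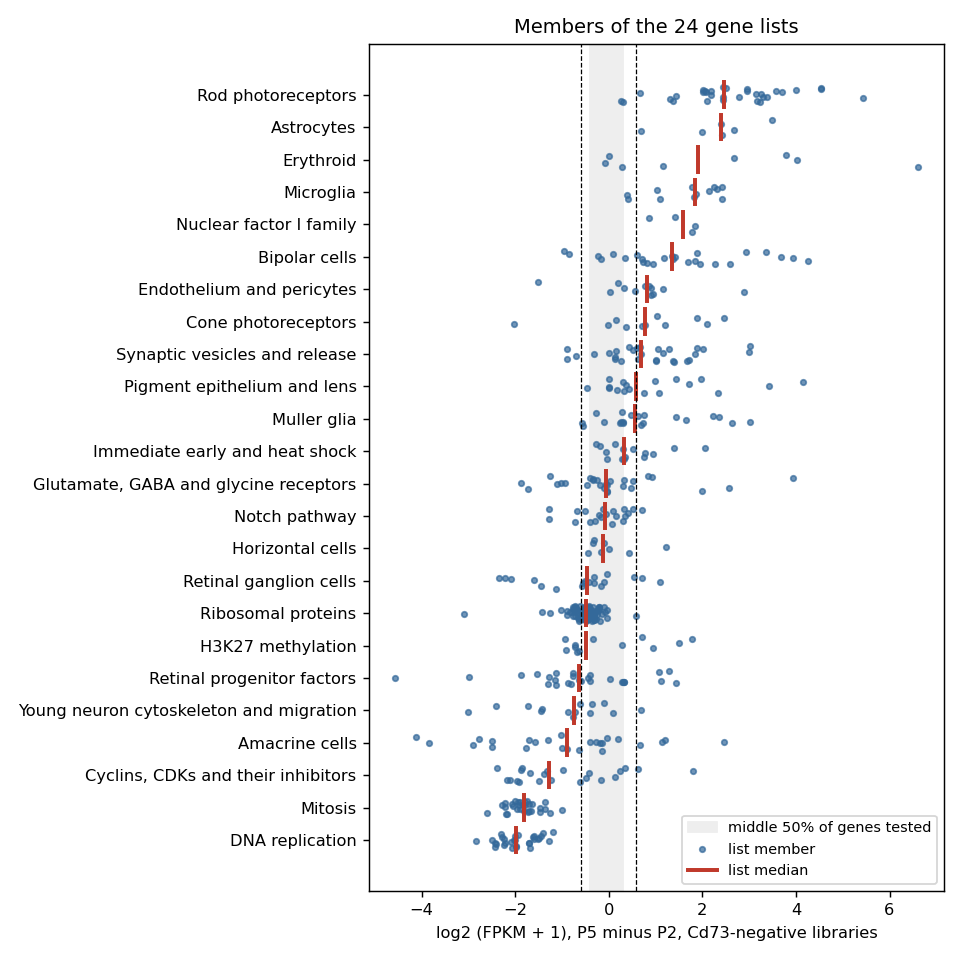
Each point is a gene of a list, placed by its log2 difference (P5 minus P2) between the Cd73-negative libraries; red bars are list medians, the grey band holds the middle of all genes compared, from -0.40 to 0.30, and dashed lines mark 1.5-fold. The medians run from -1.99 for DNA replication to 2.47 for rod photoreceptors.

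Bipolar genes were mostly higher at P5. Bipolar cells are the interneurons that pass signals from photoreceptors to ganglion cells. Of 26 measured members 21 passed the level filter. Of these 18 were higher at P5 and 2 lower, against 13.1% and 16.4% of all genes compared. The median over all 26 was 1.35. At P2 13 of the 26 were below 1 FPKM, at P5 6, and at P8 none.

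Transcription factors of bipolar subtypes stood between 9.28 and 37.2 FPKM at P5. Bhlhe23, a factor of rod bipolar cells, was listed at 0 in both P2 libraries and was at 18.1 FPKM in Cd73-negative and 2.56 in Cd73-positive cells at P5. Vsx1, a factor of cone bipolar cells, was at 9.28 at P5 from 0.00119. Isl1, used by ON bipolar cells, was at 4.79 (bounds 3.91 to 5.56) and 26.8 (23.4 to 27.5). Lhx4 was at 5.39 and 37.2. Each of these 4 was higher in the Cd73-negative than in the Cd73-positive library at P5.

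Of the signalling genes named next, those other than Gnb3 and Prkca were below 1 FPKM at P2. Grik1, a kainate receptor subunit of OFF bipolar cells, was at 0.124 FPKM at P2 and 16.1 at P5, and Scgn, a calcium-binding protein of cone bipolar cells, at 0.346 and 16.2. Grm6, the glutamate receptor of ON bipolar cells, was listed at 0 at P2 and was at 6.58 at P5 and 162 at P8. Its channel Trpm1 was at 0.102, 1.83 and 74.0, against 2.59, 2.24 and 13.8 in Cd73-positive cells. Gnb3, the G protein subunit that cones also use, was the most abundant member at P5, at 35.1 and 139. In Cd73-positive cells Gnb3 was higher, at 208 and 236. Prkca, the classical marker of rod bipolar cells, was at 3.40 and 4.61 at P5, within 1.5-fold, and at 41.7 at P8.

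The bipolar level at P5 was a small part of that at P8. The P5 value was a median of 7.69% of the P8 value over the 26 members, with a range from 0.985% to 131%, and 24 of the 26 were higher at P8. The 2 members that were lower at P5 were Rgs7, at 1.72 and 0.392 FPKM, and Irx5, at 33.0 and 17.9. At P2 9 of the 26 were higher in the Cd73-negative than in the Cd73-positive library, and at P5 20.

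Amacrine genes went the other way. Amacrine cells are inhibitory interneurons born mostly before birth. Of 25 measured members 19 passed the level filter. Of these 13 were lower at P5 and 4 higher, against 16.4% and 13.1% of all genes compared. The median over all 25 was -0.90. In Cd73-positive cells the median was -0.85, and 15 of the 25 were at least 1.5-fold lower at P5. Tcfap2b, a factor of the AP-2 family, was at 85.9 FPKM at P2 and 4.01 at P5. Tcfap2a was at 44.0 (bounds 41.6 to 46.4) and 2.13 (1.70 to 2.57), and at 0.182 at P8. The family member Tcfap2c was at 16.7 and 7.73. Nr4a2, a factor of dopaminergic and other amacrine subtypes, was at 8.78 and 0.310. Ptf1a, which commits precursors to amacrine and horizontal fates, was at 26.0 and 2.91.

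The inhibitory transmitter genes of amacrine cells were lower too. Gad1, which makes GABA, was at 5.47 FPKM at P2 and 0.152 at P5, and Gad2 at 11.9 and 4.28. The vesicular transporter Slc32a1 was at 16 and 4.21. Members that mark rarer subtypes, Chat, Th, Sst, Slc5a7, Slc18a3 and Slc17a8, were below 1 FPKM in both libraries. Of the 4 that were higher at P5, Slc6a9, a glycine transporter, was at 6.56 and 40.7, but was higher still in the Cd73-positive cells, at 47.9 and 72.3. Prox1, which bipolar and horizontal cells also express, was at 18.1, 40.9 and, at P8, 166. Ebf3 was at 3.84 and 10.2, and Npy at 19.1 and 30.8. At P8 19 of the 25 were below their P5 value. Amacrine cells are known to persist in the adult retina, and no count of cells was used here.

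**Figure D3:**
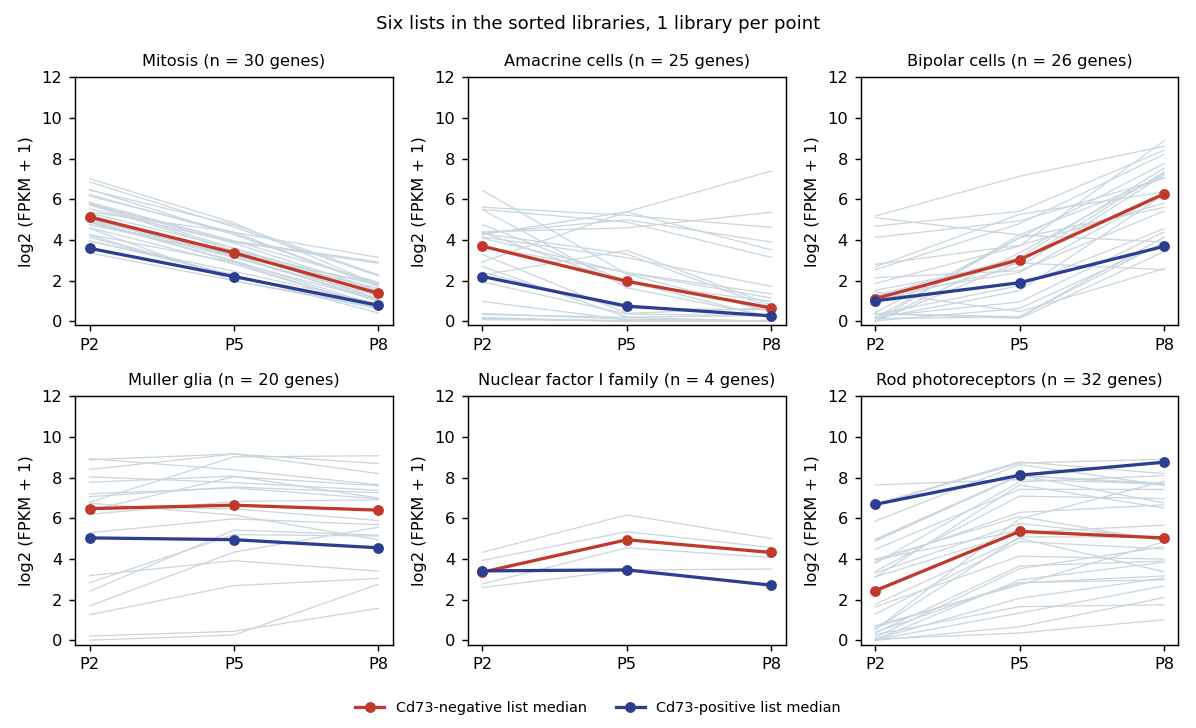
Log2 (FPKM + 1) at P2, P5 and P8 for 6 lists: thin lines are genes in the Cd73-negative libraries, and thick lines are list medians in Cd73-negative (red) and Cd73-positive (blue) libraries, 1 library per point. The Cd73-negative medians of mitosis and amacrine genes step down at each age, and that of bipolar genes goes up at each age.

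Of 18 ganglion cell genes 11 passed the filter. Of these 6 were lower and 2 higher, against 16.4% and 13.1% of all genes compared. The 2 that were higher are a share near that of all genes. The median over all 18 was -0.46. The summed FPKM was 72.2 at P2 and 26.6 at P5. Nefl, a neurofilament of large axons, was at 5.90 and 0.352, Eomes, a factor of some ganglion cell types, at 5.32 and 0.483, and Sncg at 3.65 and listed at 0. Gap43, of growing axons, was the most abundant, at 31.4 and 10.8. The defining factors Pou4f1, at 1.09 and 0.401, and Pou4f2, at 0.391 and 0.0383, were low, with Pou4f2 below 1 FPKM at P2 and at P5. Of the 2 higher members, Ebf1 was at 0.819 and 2.91 and Nefh at 0.248 and 1.05.

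For horizontal cells 3 of 8 genes passed the filter. Calb1, at 0.392 and 0.0216 FPKM, and Onecut1, at 0.774 and 0.427, were below 1 in both libraries, and Lhx1 was at 0.123 and 0.0452. Onecut2, at 0.872 and 1.53, was within 1.5-fold. Sept4, the 1 member past 1.5-fold, was at 18.9 and 45.0, but was at 40.6 and 54.3 in the Cd73-positive cells. The horizontal list thus gives no usable level for that cell type in these libraries.

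Genes of young neurons, whose products build growing axons and guide migration, were mostly lower. Of 14 measured members 9 were lower and 1 higher, against 16.4% and 13.1% of all genes compared, and the median was -0.74. Stmn2 was at 62.7 FPKM at P2 and 6.96 at P5, Dcx at 7.49 and 0.601, and Elavl4, an RNA-binding protein, at 8.55 and 1.90. Stmn1, the most abundant, was at 1409 and 769. Tubb2b, at 253 and 267, was level. Dpysl3 was the higher member, at 97.0 and 156. Mapt, the microtubule protein tau, was at 22.6, 13.0 and 58.7 across P2, P5 and P8, so it was lowest at P5.

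Müller glia, the radial glia of the retina, share many genes with progenitors. Of 20 measured members 18 passed the filter. Of these 10 were higher at P5 and none lower, against 13.1% and 16.4% of all genes compared. The median over all 20 was 0.55. Ptgds, a prostaglandin synthase, was at 4.34 FPKM and 41.9, Clu (clusterin) at 2.25 and 19.3, and Car14, a carbonic anhydrase, at 6.14 and 35.8. Apoe, a lipid carrier, was at 110 and 518, and Rlbp1, which binds retinal in the visual cycle, at 83.1 and 264. Apoe is also made by microglia and astrocytes. At P2 Ptgds, Clu and Apoe were higher in Cd73-positive cells, at 17, 16.3 and 162, as the astrocyte list was, whose 6 genes were all higher at P5 in Cd73-negative cells with a median of 2.40. The part of astrocytes in these values was not tested. Glul, at 261 and 216, Slc1a3, at 146 and 180, and Vim, at 218 and 269, were abundant at each age and within 1.5-fold. Dbi was the most abundant member, at 470 and 574. Sox8, at 106 and 70.7, and Dkk3, at 489 and 333, were lower by just under 1.5-fold. Aqp4, a marker of mature Müller glia, was at 0.161 and 0.366 and so not yet at 1 FPKM.

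Rod genes were higher in the fraction that the sort was meant to clear of rods. Of 32 measured members, Nt5e among them, 30 passed the filter. Of these 29 were higher at P5 and none lower, against 13.1% and 16.4% of all genes compared. The median over all 32 was 2.47. Nrl, the factor that sets rod fate, was at 28.3, 277 and 107 FPKM across the 3 ages, and its target Nr2e3 at 7.63, 200 and 89.8. Crx, the most abundant member at P5, was at 102 and 438; cones and bipolar cells use it too. Pde6b, a subunit of the rod phosphodiesterase, was at 0.460 and 33.0, and Sag, rod arrestin, at 12.9 and 221. Gnb1, expressed outside rods as well, was within 1.5-fold, at 199 and 239.

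The rod genes stayed a minor share of their level in Cd73-positive cells. Over the 26 members with at least 10 FPKM in Cd73-positive cells at P2, the Cd73-negative value was a median of 3.06% of the Cd73-positive one. Over 29 such members at P5 the median was 12.6%, with a range from 5.52% to 123%, and over 32 at P8 it was 7.53%. The member above 100% at P5 was Guca1a, a calcium sensor, at 52.7 FPKM in Cd73-negative and 43.0 in Cd73-positive cells. Nt5e, at 31.4 FPKM at P5, moved with the rod genes. How far cells that carry Cd73 contribute to these values was not tested.

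The promoters of 2 photoreceptor genes show the letters TAATCC, on either strand, to which Crx and Otx2 are known to bind. Crx (chr7:15879956-15880105, minus strand) and Sag (chr1:87803530-87803679, plus strand) are shown, 150 bases before the GRCm38.p6 start, with the match in capitals.
Crx: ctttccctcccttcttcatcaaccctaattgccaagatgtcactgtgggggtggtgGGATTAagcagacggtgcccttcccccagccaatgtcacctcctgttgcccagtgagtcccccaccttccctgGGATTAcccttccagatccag
Sag: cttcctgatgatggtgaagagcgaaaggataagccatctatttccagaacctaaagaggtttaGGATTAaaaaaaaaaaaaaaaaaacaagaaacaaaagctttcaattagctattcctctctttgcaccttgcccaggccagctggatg

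Of 26 promoters of 24 rod genes 12 (46.2%) held TAATCC in the window of 300 bases, against 7.06% of all promoters, none of the 30 replication and none of the 27 mitosis promoters, and 1 of 26 (3.85%) amacrine promoters. The latter came from 21 amacrine genes.

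Cone genes were measured at lower levels. Of 11 members 9 passed the level filter. Of these 7 were higher and 1 lower, against 13.1% and 16.4% of all genes compared. The median over all 11 was 0.77. Arr3, cone arrestin, was at 0.271 FPKM and 5.98, Gngt2, a transducin subunit, at 80.3 and 348, and Opn1sw, the short-wave opsin, at 26.2 and 99.4. Gngt2 was far higher in Cd73-positive cells, at 1260 and 1460. Pde6h was the exception, at 15.7, 3.08 and 22.2 across P2, P5 and P8; the Cd73-positive libraries gave 19.4, 2.67 and 34.8. Thus Pde6h was lowest at P5 in each fraction. Pde6c, the cone phosphodiesterase, was at 0.896 and 0.859, and Opn1mw, the medium-wave opsin, was listed at 0 at P2 and at 0.113 at P5.

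Genes of synaptic vesicles and release were mostly higher. Of 29 members 26 passed the level filter. Of these 18 were higher and 3 lower at P5, against 13.1% and 16.4% of all genes compared. The median over all 29 was 0.68. Slc17a7, the vesicular glutamate transporter of photoreceptors and bipolar cells, was at 4.49 FPKM and 43.6, Cacna2d4, a calcium channel subunit of their ribbon synapses, at 2.93 and 30.1, and Cplx2 at 35.1 and 144. Syp, the most abundant, was at 72.0 and 261. Those 4 were at 239, 43.3, 382 and 857 in Cd73-positive cells at P5. Among the lower members were Stx1a, at 4.89 and 2.19, and Rims1, at 2.48 and 1.15, which were higher in Cd73-negative than in Cd73-positive cells at each age. Stx3, the syntaxin of ribbon synapses, was at 10.7 and 42.5.

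Of 27 neurotransmitter receptor genes 19 passed the level filter. Of these 5 were higher and 6 lower, against 13.1% and 16.4% of all genes compared. The median over all 27 was -0.07, or 0.03 with centred values. The AMPA receptor subunit Gria1 was at 3.99 FPKM and 0.348, and the GABA receptor subunits Gabra2 and Gabra3 were at 6.04 and 1.13 and at 3.59 and 0.916. On the higher side, with Grik1 above, Gabrr1, a GABA receptor subunit of bipolar cells, was at 0.0765, 3.25 and, at P8, 170. Grik5 had the highest level at P5, 23.6, from 16.2.

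The enzymes of histone H3K27 methylation, a mark of silenced genes, were divided. Of 12 genes 6 were lower and 4 higher, against 16.4% and 13.1% of all genes compared. The core of the Polycomb complex was lower: Ezh2, the methyltransferase, was at 82.1 FPKM and 43.3, Eed at 29.0 and 14.7, Suz12 at 53.2 and 32.0, and the histone-binding Rbbp7 at 78.1 and 46.8. Rbbp4, the most abundant, was at 142 and 87.6. The alternative methyltransferase Ezh1 was at 3.56 and 7.72, and Jarid2, which recruits the complex, at 9.90 and 30.0. Of the demethylases, Kdm6b (Jmjd3) was at 14.4 and 51.5, past 1.5-fold, and Kdm6a at 11.2 and 13.7, within it.

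Markers of other cells that a retinal suspension can hold were also higher at P5. Over all genes compared 13.1% were higher and 16.4% lower. All 6 astrocyte genes passed 1.5-fold, led by Aldoc, at 3.34 FPKM and 47.9, Pdgfra, at 2.22 and 19.6, and S100b, at 0.0358 and 4.54. Of 12 microglia genes 10 were higher and none lower, led by C1qc, at 1.53 and 12.5, and Csf1r, at 0.697 and 8.02; C1qa was the most abundant, at 2.44 and 16. Of 18 pigment epithelium and lens genes 8 were higher, among them the pigment genes Pmel, at 0.325 and 22.6, and Dct, at 1.04 and 9.28, and Ttr, at 0.205 and 11.9. Of the defining marker Rpe65, 0 FPKM was listed at P2 and 0.351 at P5, and the lens gene Crybb3 was at 0.752 and 0.276. In the Cd73-positive cells Pmel was at 37.4 and 33.3, and C1qa at 15.3 and 10.9.

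Blood genes were higher at P5 in each fraction. Of 8 measured erythroid genes 5 were higher, against 13.1% of all genes compared. Hbb-b2 was at 26.9 FPKM and 451, and Hba-a1 at 51.6 and 725; in Cd73-positive cells they were at 3.68 and 303 and at 15.4 and 488. Hba-a1 and Hba-a2 are near-identical copies, so the split of reads between them is uncertain. Alas2, the haem enzyme of red cells, was at 0.412 and 7.98. Of 12 endothelial and pericyte genes 7 passed the level filter. Of these 5 were higher and 1 lower, against 13.1% and 16.4% of all genes compared. FPKM summed over this list was level, at 172 at P2 and 174 at P5. Rgs5, a pericyte gene, was at 0.585 and 10.8, and Esam at 0.190 and 1.64. Tie1 was at 0.0142 and 0.940, under the filter. Cldn5 was at 29.1 and 9.49, and Kdr, which retinal progenitors also express, at 139 and 143. Pecam1, a defining endothelial marker, was at 0.223 and 0.813.

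**Figure D4:**
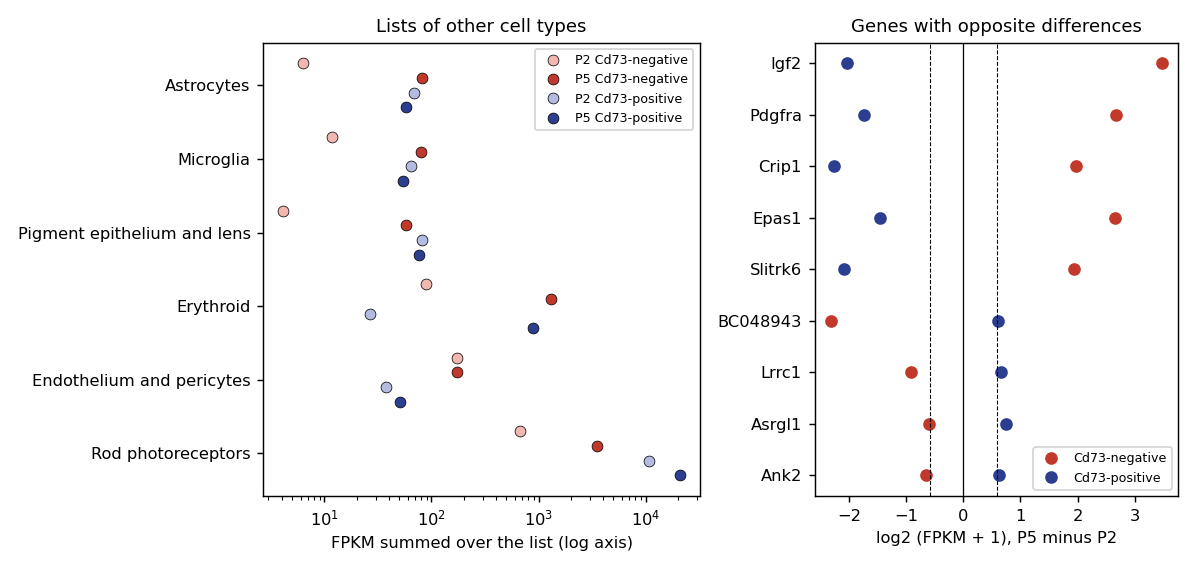
Left, FPKM summed over each list (log axis) in the P2 and P5 libraries of each fraction; right, log2 differences (P5 minus P2) of 9 genes past 1.5-fold in opposite directions in the fractions. The P2 Cd73-negative library has the lowest sum for the astrocyte list, 6.25, the microglia list, 11.8, and the pigment epithelium and lens list, 4.11.

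Genes of handling and of growth differed too. Of 15 immediate early and heat shock genes, which respond to dissociation, 11 passed the level filter. Of these 5 were higher, against 13.1% of all genes compared, and none lower, and the median over all 15 was 0.33. Ier3 was at 3.12 FPKM and 16.2, Egr1 at 9.01 and 25.3, and Junb at 3.80 and 8.20. Jun, at 70.3 and 57.8, and Dusp1, at 17.0 and 14.9, stayed within 1.5-fold, and Btg2, the most abundant and also a differentiation gene, was at 110 and 189. Of 81 ribosomal protein genes 78 passed the filter, and 26 were lower, against 16.4% of all genes compared, and none higher. Their differences were small and of a common sign: 80 of 81 were below 0, with a median of -0.48. Rps9, the most abundant, was at 1414 and 1175. Rpl30 was at 51.0 and 18.3, and Rpl26 at 29.4 and 11.7. Rps27, at 32.8 and 2.97, has near-identical copies in the genome and is uncertain, and Rpl3l, a muscle paralog, was at 0.0893 and 0.621.

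Outside the lists, the 12 largest differences on each side were taken among genes with at least 10 FPKM in either library. Apart from the genes already given, those lower at P5 included Crabp1 and Crabp2, which bind retinoic acid in the cytoplasm, at 270 and 12.7 FPKM and at 18.9 and 1.24. C1ql2, a secreted C1q-like protein of synapses, was at 24 and 0.625, and Tcfap2e, another AP-2 factor, at 13.3 and 0.211. Syt6, a synaptotagmin, was at 21.1 and 1.09, Krt73, a keratin, at 21.2 and 1.54, and AI593442 at 19.2 and 0.426. In Cd73-positive cells at P2 each of these 7 was below its Cd73-negative level.

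On the higher side were Htra1, a secreted serine protease, at 5.12 FPKM and 117, and Trnp1, a nuclear protein of neural progenitors, at 0.576 and 25.2. Trnp1 went on to 306 at P8 in Cd73-negative cells and 38 in Cd73-positive cells, whereas Htra1 was higher in the Cd73-positive libraries, at 192 and 290. Of these 24 rows several are uncertain. LOC100302567 was at 55.3 at P2, above the upper bound of 5.00 that Cufflinks gave it, and Gm6793 was at 16.6. Both were listed at or near 0 in the P5 Cd73-negative and every Cd73-positive library, so both are uncertain. Gm6793 was near 0 in the P8 Cd73-negative library too. Atp6v0c-ps2, at 0.640 and 152, is a pseudogene, and the pair of Hba-a2 rows, at 0.0121 and 98.2 and at 0.00898 and 82.8, share reads with Hba-a1. Bc1, a short RNA made by RNA polymerase III, was listed at 0 in 7 of the 8 libraries and at 50.5 in the P5 Cd73-negative one, and is uncertain as well.

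Few genes crossed from off to on. Of the genes compared, 25 rows were below 1 FPKM at P2 and at 10 or more at P5, and 8 were at 10 or more at P2 and below 1 at P5. Hba-a2 and Cngb1 each hold more than 1 of the 25 rows. Pcp4, a calmodulin-binding protein, was at 0.953, 26.8 and 438 FPKM in Cd73-negative cells across P2, P5 and P8. Lhx3 was at 0.808, 15.0 and 74.8. Both were higher in Cd73-negative than in Cd73-positive cells at P8. Rod genes were among the 25 rows too, such as Cngb1, a rod channel subunit. It was at 0.290, 11.6 and 14.0 in Cd73-negative and 234 in Cd73-positive cells at P8. Dio3, which inactivates thyroid hormone, was among the 8 that went off, at 10.4 and 0.830.

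The called genes were then set beside 4 libraries that the calls did not use. Of the 1632 higher genes with a value in all libraries, 24% were also at least 1.5-fold higher at P5 in Cd73-positive cells, against 5.19% of all 12452 genes so measured, and 7.29% were lower there, against 14.7%. Of the 2038 lower genes 49.3% were lower in Cd73-positive cells too, against 14.7% of all genes. At P8, 31.4% of the higher genes had at least 1.5-fold more in Cd73-positive than in Cd73-negative cells and 35.4% had the reverse, against 11.9% and 29.4% of all genes. For the lower genes these shares were 6.23% and 35.9%. The Cd73-negative shares of the higher and lower genes at P8 were thus near that of all genes. The fractions of an age come from the same pool of retinas, so these libraries are not independent animals.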

How the data were processed

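RNA from sorted Cd73-negative retinal cells of ICR mice was sequenced as 36-base single-end reads, with 1 library at P2 and 1 at P5. The authors mapped reads to mm9 and deposited FPKM per gene with confidence bounds. The submitters' processing notes name CASAVA 1.8.2, bcl2fastq 1.8.4, TopHat2 2.0.8b and Cufflinks 2.1.1. Read counts and absolute depth are unknown. No intervals over animals can be given, and the bounds cover the counting and assignment of reads in 1 library.

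Tables were joined on gene and locus. The 799 small RNA rows were left out, as were 11 rows that Cufflinks failed in either library. Genes with at least 1 FPKM in either library were kept, and differences were taken on log2 (FPKM + 1) with a pseudocount of 1, which understates low genes. Of the genes compared, 1967 have an FPKM outside their own bounds in either library. A symbol with several rows is represented in a list by its most abundant row. List medians cover all measured members; Map1b, Hbb-bt and Hbb-bs were not matched and are not analysed here.

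The members, the 24 lists and the rules were chosen with earlier results of these data known. Named from each list were the 3 largest differences in the direction of the median, up to 2 the other way and the most abundant member, with further members by role; some genes that the rules name are not reported here. Over all genes with at least 10 FPKM the 12 largest each way were named, with up to 5 each way that went in opposite directions in the fractions. The call rule was tested on simulated data. Python 3.11.15, numpy 2.4.6, pandas 2.3.3 and matplotlib 3.10.9 were used. Promoters came from RefSeq. Alternatives were the pseudocount, the filter, the scaling, the fold and the handling of rows.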

Additional observations from a re-analysis of the deposited data

Results flagged for a closer look

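Several genes were past 1.5-fold from P2 to P5 in opposite directions in the fractions, and were picked out for that. With 1 library per point the difference between the fractions was not tested. Among the 6253 genes with at least 10 FPKM in the higher library of each fraction, 52 (0.832%) were higher at P5 in Cd73-negative and lower in Cd73-positive cells, and 4 (0.064%) were the reverse. Of the genes higher at P5 in Cd73-negative cells 7.29% were lower in Cd73-positive cells, against 14.7% of all genes, and of the lower ones 0.736% were higher there, against 5.19%. All values that follow are log2 differences of FPKM + 1, P5 minus P2.

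Igf2, a growth factor made by mesenchymal and vascular cells, had 3.48 in Cd73-negative and -2.05 in Cd73-positive cells, and its levels were 7.92 and 98.5 FPKM against 165 and 39.3. Pdgfra, a receptor of retinal astrocytes, had 2.68 in Cd73-negative and -1.74 in Cd73-positive cells. Epas1, a hypoxia-inducible factor, had 2.66 in Cd73-negative and -1.47 in Cd73-positive cells. Crip1 had 1.97 in Cd73-negative and -2.27 in Cd73-positive cells, and Slitrk6, a neuronal membrane protein, had 1.94 in Cd73-negative and -2.10 in Cd73-positive cells. For each of these 5 the P2 library was higher in Cd73-positive cells and the P5 library in Cd73-negative cells. In Cd73-negative cells the summed FPKM of the astrocyte list went from 6.25 to 81.8 and that of the microglia list from 11.8 to 79.4, the same way as these genes. In Cd73-positive cells the sums were 69.2 and 57.2 and 65.1 and 54.3, a smaller change than that of the 5 genes. The part of these cells was not tested.

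Of the 4 genes of the reverse pattern, BC048943 had -2.32 in Cd73-negative and 0.61 in Cd73-positive cells, and its Cd73-negative level was back at 42.7 FPKM at P8, from 35.4 at P2 and 6.29 at P5. Lrrc1 had -0.92 in Cd73-negative and 0.67 in Cd73-positive cells, Asrgl1 had -0.60 in Cd73-negative and 0.75 in Cd73-positive cells, and Ank2, an ankyrin of axons, had -0.66 in Cd73-negative and 0.63 in Cd73-positive cells.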

How the results depend on the processing

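No paired analysis was possible because each age and fraction has 1 library, and for the same reason no replicate could be left out. A list median or count was compared with its main value by the 1.5-fold criterion, since there is no replicate spread. Of 282 values under the alternatives, 272 stayed within it and 10 did not. List medians cover all measured members, so a changed level filter could not move them and is no check on them. They were also the same with small RNA rows kept, with rows of a symbol summed and with failed rows as 0. With a pseudocount of 0.1 the medians of 8 lists moved away from 0: bipolar cells to 2.07, rod photoreceptors to 3.2, astrocytes to 3.98, microglia to 2.62, endothelium and pericytes to 1.59, erythroid to 2.59, pigment epithelium and lens to 2.22, and retinal ganglion cells to -1.26. At a 2-fold threshold the counts were 711 higher and 825 lower. Centring turned the sign of the medians of the Notch pathway, to 0.01, and of the transmitter receptors, to 0.03, so neither has a direction. Upper-quartile scaling gave 1903 higher and 1678 lower, and quantile normalization 1771 and 1789. Requiring Cufflinks bounds that do not overlap gave 1603 and 1971. Depth limits genes near 1 FPKM.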
